A study of Mus musculus with 6 samples.

Results

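Some genes that myeloid cells are not known for differed widely between Rpl22+/+ and Rpl22-/- Mll-AF9 leukemias, and 7 of them are described here: Strc, Scn2b, Ngfr, Sgsm1, Epha2, Mansc1 and Cyb561. They were selected on their CPM and log2 fold change between the genotypes in these same libraries, as genes usually made in the inner ear, nerve, epithelium or neuroendocrine tissue, and they are 7 of 29347 genes with any read and of 16656 genes tested. Because their change in these libraries was the reason for choosing them, their levels are given as a description, with no test. Strc, Scn2b and Ngfr were lower in Rpl22-/-, and Sgsm1, Epha2, Mansc1 and Cyb561 were higher. Genes of the same families and genes that lie beside them on the chromosome were listed by family or position and were tested, although the lists were drawn up with earlier results of these data known.

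RNA was sequenced from CD11b+Gr1+ splenocytes that were sorted from tumor-bearing mice carrying Mll-AF9, a knock-in fusion oncogene that drives acute myeloid leukemia, and all 6 libraries share it. By their labels 3 libraries are Rpl22+/+ and 3 are Rpl22-/-, and the study's methods give young adult mice backcrossed to C57BL/6, and the age at which the leukemic mice behind each library were taken is not stated there. A legend of the study names 1 mouse per genotype and no label ties the libraries to separate animals, so errors and p-values here measure only the spread between libraries, which may be technical. Rpl22 encodes an RNA-binding protein of the large ribosomal subunit.

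The libraries held between 35828500 and 102866127 estimated reads, with Rpl22-/- replicate 1 the shallowest. Levels are given in CPM, that is, reads scaled to the same total in every library after TMM scaling in edgeR, and 3 reads correspond to 0.0283 to 0.0802 CPM, depending on the library. Rpl22 itself was reduced but still present, and lower in every Rpl22-/- library (58.3 to 89.9 CPM) than in any Rpl22+/+ library (148 to 235 CPM; edgeR, log2 change -1.27 ± 0.25 (SE) with adjusted p = 0.0106). Rpl22+/+ replicate 2 stood apart from the other Rpl22+/+ libraries: Ptprc, the pan-leukocyte gene for CD45, was at 155 CPM there and at 1128 and 1054 CPM in replicates 1 and 3. The changes of the 7 genes are therefore given with and without that library.

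Between the genotypes, 8.93% of the genes tested were called higher and 8.54% lower in Rpl22-/-, 17.5% in all, where a call needs an adjusted p under 0.05 and a log2 fold change of more than 1 in size in the quasi-likelihood test of edgeR. The genotypes did not overlap in CPM for 46.1% of the genes tested. The 7 genes all passed the filter on low counts and none of them overlapped between genotypes, which follows from how they were chosen. Over the 16656 genes tested the log2 fold change had a median of 0.07.

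Genes of this kind are usually silent or low in blood cells, where their promoters are little used. A gene can have more than 1 promoter, each with its own first exon, and a promoter rich in CpG is in general open to use in more cell types than one poor in CpG. The start regions of Strc, Scn2b, Sgsm1 and Epha2 are shown because the reads of these genes differ most between the genotypes, and both Sgsm1 starts are shown because reads fell on transcripts of each. They are RefSeq sequences on the GRCm38.p6 build, 5′ to 3′ on the strand of the gene, from 250 bases before to 50 bases after the annotated start, and capitals mark the motifs found.
Strc, chr2:121380891-121381190, minus strand: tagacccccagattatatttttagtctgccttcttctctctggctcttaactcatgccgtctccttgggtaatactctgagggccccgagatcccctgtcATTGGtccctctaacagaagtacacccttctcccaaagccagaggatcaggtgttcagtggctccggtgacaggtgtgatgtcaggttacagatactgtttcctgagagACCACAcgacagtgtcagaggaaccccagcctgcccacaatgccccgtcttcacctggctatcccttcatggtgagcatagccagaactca
Scn2b, chr9:45117626-45117925, plus strand: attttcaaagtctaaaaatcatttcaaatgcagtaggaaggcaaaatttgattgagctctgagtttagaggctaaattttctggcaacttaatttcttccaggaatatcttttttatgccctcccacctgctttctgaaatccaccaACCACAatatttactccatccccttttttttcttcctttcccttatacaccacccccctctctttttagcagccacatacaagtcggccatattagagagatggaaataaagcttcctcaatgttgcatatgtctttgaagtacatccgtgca
Sgsm1 distal start, chr5:113310737-113311036, minus strand: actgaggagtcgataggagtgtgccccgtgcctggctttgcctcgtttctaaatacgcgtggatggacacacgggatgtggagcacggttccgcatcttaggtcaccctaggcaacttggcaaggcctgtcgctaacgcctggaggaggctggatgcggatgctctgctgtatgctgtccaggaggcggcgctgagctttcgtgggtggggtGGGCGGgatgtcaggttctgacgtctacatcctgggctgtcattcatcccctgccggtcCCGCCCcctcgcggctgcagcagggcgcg
Sgsm1 internal start, chr5:113280552-113280851, minus strand: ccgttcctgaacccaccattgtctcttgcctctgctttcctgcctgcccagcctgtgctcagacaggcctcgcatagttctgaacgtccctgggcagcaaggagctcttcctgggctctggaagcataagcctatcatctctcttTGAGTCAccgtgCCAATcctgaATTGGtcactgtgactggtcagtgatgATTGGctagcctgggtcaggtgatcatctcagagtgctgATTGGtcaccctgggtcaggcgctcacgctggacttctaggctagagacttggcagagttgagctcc
Epha2, chr4:141300971-141301270, plus strand: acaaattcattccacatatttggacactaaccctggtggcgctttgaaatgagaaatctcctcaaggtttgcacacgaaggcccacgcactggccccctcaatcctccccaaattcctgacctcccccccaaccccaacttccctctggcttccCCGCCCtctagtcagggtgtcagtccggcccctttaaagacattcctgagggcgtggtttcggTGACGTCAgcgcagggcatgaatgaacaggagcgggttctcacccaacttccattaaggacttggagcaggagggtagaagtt

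Of the 7 genes, 5 had such a window, 6 windows in all, and Ngfr is the fifth. The windows of Strc and Scn2b, the genes that were lowest in Rpl22-/-, held 5 and 2 CpG, against a median of 7 over 32851 windows of all genes. The distal Sgsm1 window held 22 CpG and that of Ngfr 23, while the internal Sgsm1 window held 6 and that of Epha2 10. Each window was searched on both strands for the CAAT box with the letters CCAAT, the GC box with GGGCGG, the TATA box with TATAAA, the E-box with CACGTG, the AP-1 motif with TGANTCA, a C/EBP motif with TTGCNNAA, an ETS motif with AGGAAGT, a RUNX motif with TGTGGT and the cAMP response element with TGACGTCA. TGTGGT was present in the windows of Strc and Scn2b and in 16.8% of all windows. CCAAT was present in the window of Strc, and 4 times in the internal Sgsm1 window, which also held the AP-1 motif, and 37.4% of all windows held CCAAT and 7.81% the AP-1 motif. The GC box was present in the distal Sgsm1 window, in that of Ngfr and in that of Epha2, and in 35.7% of all windows. TGACGTCA, present in 1.79% of all windows, was found in that of Epha2, 33 bases before the start. The TATA box, the E-box, the C/EBP motif and the ETS motif were in none of the 6. These matches describe letters in a short window and not binding.

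The largest loss was that of Strc, which encodes stereocilin, an extracellular protein that joins the tips of the stereocilia of outer hair cells in the inner ear. Strc (ENSMUSG00000033498, GRCm39 chr2:121194209-121217649, minus strand) was at 97.5, 82.4 and 95.1 CPM in Rpl22+/+ and at 0.909, 0.729 and 0.746 CPM in Rpl22-/-. Every Rpl22+/+ library was thus far above every Rpl22-/- library, and within each genotype the libraries lay close together. The means were 91.7 ± 8.11 and 0.795 ± 0.0995 CPM (SD, n = 3 in each genotype), and the log2 fold change was -6.86 ± 0.18 (SE; -6.99 without Rpl22+/+ replicate 2). In reads this was 20063 against 186, a ratio per unit depth of 120 with an exact binomial 95% interval of 104 to 139. Here and for the genes below, such an interval pools the reads of a genotype. It covers counting error only, not the spread between libraries. Per length, Strc was at 25.4 ± 5.26 TPM in Rpl22+/+, above 72.5% of the genes tested, and at 0.229 ± 0.0398 TPM in Rpl22-/-, above 11.8%. In sorted bulk cells, fewer cells that make a transcript and less of it per cell cannot be told apart.

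**Figure D1:**
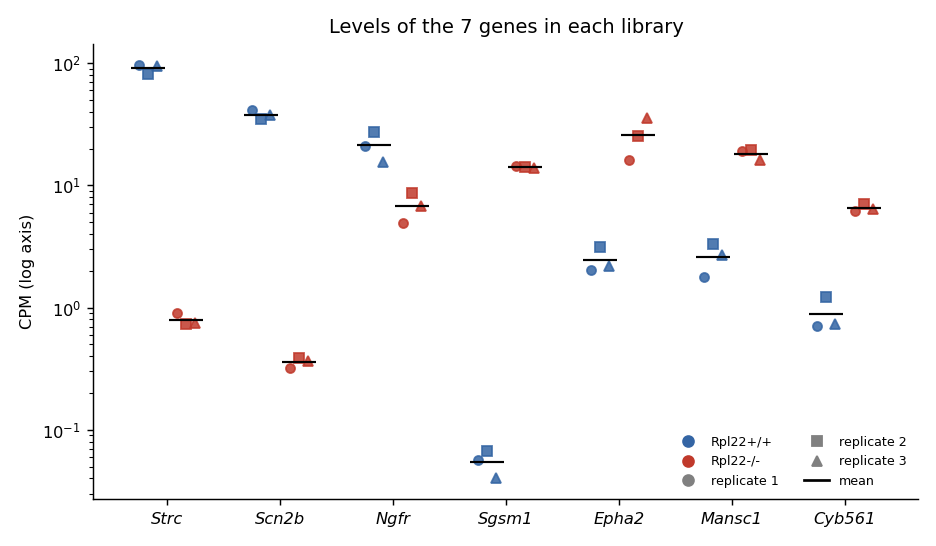
CPM (scaled reads, log axis) of the 7 genes in each library, blue for Rpl22+/+ and red for Rpl22-/-, with the shape giving the replicate and the black bar the mean of 3. Strc and Scn2b have means of 91.7 and 37.9 CPM in Rpl22+/+ and lie under 1 CPM in Rpl22-/-, Sgsm1 goes the other way from under 0.1 CPM in Rpl22+/+, and no gene has overlapping genotypes.

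The split of Strc reads over its transcripts was much alike in both genotypes. Of 5 annotated transcripts, the full-length coding Strc-201 took 86.2 ± 0.98% of the reads in Rpl22+/+ and 87.0 ± 1.90% in Rpl22-/-. Nearly all the rest fell on Strc-204, a retained-intron transcript of 2067 bases that starts 6228 bases upstream of Strc-201. Its share was 12.7%, 14.5% and 13.6% in the Rpl22+/+ libraries and 12.0%, 15.1% and 11.7% in the Rpl22-/- libraries. In Rpl22-/- that share rests on 4, 11 and 9 reads. The Wilson 95% intervals of these libraries together span 4.67% to 26.6%, so a small shift in the split was not detectable at this depth. Per length the shorter Strc-204 weighs more, with 31.2 ± 1.65% of the TPM of Strc in Rpl22+/+ and 30.5 ± 3.52% in Rpl22-/-. The window printed above is that of Strc-201, whose start it shares to the base, whereas Scn2b-202, the transcript with the reads of Scn2b, starts 94 bases upstream of the start used for the Scn2b window, and Epha2-201 starts 19 bases downstream of that used for Epha2.

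Of the hair-cell markers, the defining transcription factor genes Pou4f3 and Atoh1 were at 0 in every library. The 6 genes of that list summed to 59.7 to 72.5 CPM in Rpl22+/+ and 265 to 312 CPM in Rpl22-/-, most of it Gfi1, which granulocyte precursors also express, and its 3 genes tested (Gfi1, Otof and Myo15a) were called higher. The call of Myo15a was lost in 9 of 12 alternatives, the replicate block among them (edgeR adjusted p = 0.0555). Otof and Myo15a also stand in the list of genes related to Strc. Among 23 genes related to Strc, most of them of the hair bundle or of the tectorial and otolithic membranes, 12 were tested. Of these, 4 were called lower and 3 higher. Ceacam16, a gene of the tectorial membrane and among those called lower, lost its call in 7 of 12 alternatives, among them each fit without a library other than Rpl22+/+ replicate 2 (edgeR adjusted p of 0.0590 to 0.106). Otog, the gene for the matrix protein otogelin, had 227 reads over the Rpl22+/+ libraries (0.954, 1.13 and 1.02 CPM) and 0 over the Rpl22-/- libraries. Against a floor of 3 reads over the Rpl22-/- group it was at least 84.1-fold lower (edgeR adjusted p = 0.000936), and the call was lost in 1 of 12 alternatives, log2(TPM + 1), in which the change of so low a gene is small. Cdh23, a cadherin of the tip links between stereocilia, was at 6.94, 5.46 and 5.29 CPM in Rpl22+/+ and 1.74, 1.65 and 2.05 CPM in Rpl22-/- (edgeR, log2 change -1.70 ± 0.21 with adjusted p = 0.0018). Eps8, an actin regulator of stereocilia and the most abundant of those not called, was at 10.1 ± 1.58 and 12.6 ± 1.58 CPM (edgeR adjusted p = 0.262). None of the 4 tested genes nearest to Strc was called, with log2 fold changes of 0.07 for Ppip5k1, -0.83 for Map1a, 0.83 for Catsper2 and 0.97 for Pdia3, which passed the adjusted p (0.00413, edgeR) but not the minimum fold.

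Scn2b followed Strc most closely of the other 6 genes. It encodes an auxiliary beta subunit of voltage-gated sodium channels, a membrane protein with an immunoglobulin fold that helps to place the channel at the surface of neurons. Scn2b (GRCm39 chr9:45029080-45041368, plus strand) was at 41.2, 34.9 and 37.6 CPM in Rpl22+/+ and at 0.321, 0.389 and 0.368 CPM in Rpl22-/-. Again the libraries of a genotype lay close together and the genotypes far apart. The log2 fold change was -6.70 ± 0.18 (SE; -6.78 without Rpl22+/+ replicate 2), with 8291 reads against 90 and a ratio of 102 (exact binomial 95% interval 83.2 to 127). Per length it was at 10.2 ± 2.14 TPM and 0.102 ± 0.00414 TPM. All of its assigned reads were on Scn2b-202, the 1 transcript of the gene matched here to the annotation.

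Of the 13 other sodium channel genes, alpha subunits that form the pore and the remaining beta subunits, 5 were tested, 2 were called lower and 1 higher. Scn4b, a beta subunit and the next tested gene downstream of Scn2b on the same strand, 8.33 kb away, fell from 2.72, 3.55 and 2.91 CPM to 0.0267, 0.0399 and 0.0378 CPM. This was 672 reads against 9, the lower value being at or near the level of 3 reads, and a log2 fold change of -6.33 ± 0.32 (edgeR adjusted p = 7.66e-05; the call was lost in 1 of 12 alternatives, log2(TPM + 1)). Scn4a, the alpha subunit of skeletal muscle, was at 3.26 ± 0.347 and 1.62 ± 0.202 CPM (edgeR adjusted p = 0.015). Its fold is at the threshold, and the call was lost in 7 of 12 alternatives, with an edgeR adjusted p of 0.0584 when Rpl22+/+ replicate 1 was left out, 0.0536 for Rpl22-/- replicate 1 and 0.0677 for Rpl22-/- replicate 3, and a log2 fold change of -0.99 when Rpl22+/+ replicate 2 was left out. The call higher was that of Scn3b, a beta subunit, and it was lost in 7 of 12 alternatives, among them each fit that left out a library other than Rpl22+/+ replicate 2 (edgeR adjusted p of 0.0580 to 0.0872). The channels Scn1a and Scn2a, with which the protein pairs in brain, had 0 and 3.5 reads over all libraries. On the other side of Scn2b, Jaml and Mpzl3 had log2 fold changes of -0.94 (edgeR adjusted p = 0.00205, under the minimum fold) and -0.45, and Tmprss4, beyond Scn4b, -0.19, and none of the 3 was called. Neuronal markers were near 0 in both genotypes: the 8 genes summed to 1.18 to 1.24 CPM in Rpl22+/+ and 0.699 to 0.775 CPM in Rpl22-/-, far below Scn2b itself in Rpl22+/+ and above it in Rpl22-/-, with Snap25, Stmn2 and Nefl at 0 throughout, Tubb3 called lower and Syt1 called higher.

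Ngfr had the smallest change of the 7. It encodes the p75 receptor, which binds every neurotrophin, works with the Trk receptors in neurons and glia, and on its own can signal through a death domain. Ngfr (GRCm39 chr11:95459644-95478561, minus strand) was at 20.9, 27.3 and 15.6 CPM in Rpl22+/+ and at 4.92, 8.61 and 6.74 CPM in Rpl22-/-. The lowest Rpl22+/+ library was above the highest Rpl22-/- library, but the highest of each genotype was 1.75 times the lowest. The means of 21.3 ± 5.84 and 6.76 ± 1.84 CPM gave a log2 fold change of -1.65 ± 0.29 (SE; -1.46 without Rpl22+/+ replicate 2). Pooled reads were 4656 against 1760, with a ratio of 2.94 (exact binomial 95% interval 2.78 to 3.11). That interval covers counting error only, and the ratio of the mean CPM, 3.15, lies outside it. Per length it was at 7.64 ± 1.33 TPM in Rpl22+/+ and 2.61 ± 0.535 TPM in Rpl22-/-, and its reads were all on the full-length Ngfr-201.

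Of 17 genes of neurotrophin signaling, 9 were tested, 3 were called lower and 1 higher. The ligand Ntf5 (neurotrophin 4/5) was at 15.7, 19.0 and 13.7 CPM in Rpl22+/+ and 0.561, 0.499 and 0.283 CPM in Rpl22-/-. Its log2 change was -5.20 ± 0.32 (edgeR adjusted p = 0.000136), and the call was lost in 0 of 12 alternatives. Among genes of the list too low to be tested, the ligand genes Bdnf and Ntf3 had 0 reads over all 6 libraries and the receptor kinase gene Ntrk2 had 3. Nradd, which encodes a death-domain protein similar to p75, rose from 5.55, 5.48 and 5.72 CPM to values between 11.0 and 18.0 CPM (edgeR, log2 change 1.33 ± 0.21 with adjusted p = 0.00499; lost in 0 of 12). Sort1, the gene for sortilin, a coreceptor of p75 for the uncleaved neurotrophins, was at 447 ± 81.5 and 342 ± 34.5 CPM and was not called (edgeR adjusted p = 0.157). Beside Ngfr, Zfp652 fell from 87.4 ± 7.7 to 38.2 ± 5.01 CPM (edgeR, log2 change -1.20 ± 0.15 with adjusted p = 0.00191; 125 kb away), while Spop, Slc35b1 and Phb1 were not called, at -0.32, 0.54 and 0.49. With a pseudocount of 1 or of 0.1 on TPM the change of Zfp652 was -0.91 and -0.98, under the fold threshold. Glial and neural crest markers, of which 2 of 6 were tested and none called, summed to 0.257 to 1.25 CPM in Rpl22+/+ and 0.429 to 0.821 CPM in Rpl22-/-, and Olig2 was at 0. The 6 markers of follicular dendritic and reticular cells, lymphoid stroma in which Ngfr is known, summed to 0.945 to 2.45 CPM in Rpl22+/+ and 3.50 to 5.04 CPM in Rpl22-/-. Cr2, called higher, was the larger part of that sum in every library except Rpl22+/+ replicate 2, and Pdpn, the other gene of the list tested, was called lower.

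Sgsm1 had the largest change of the 7 and was the reverse of Strc and Scn2b. It encodes a protein with RUN and TBC domains that is found mainly in brain and interacts with Rap and Rab GTPases. Sgsm1 (GRCm39 chr5:113391086-113458652, minus strand) had only 4, 5 and 3 reads in Rpl22+/+, and 538, 1408 and 1470 in Rpl22-/-. In CPM this was 0.0570, 0.0675 and 0.0401 against 14.4, 14.1 and 13.9. The 3 Rpl22+/+ values are at or near the level of 3 reads, while the Rpl22-/- values were the tightest of the 7 genes, the highest being 1.04 times the lowest. The log2 fold change was 7.97 ± 0.25 (SE; 8.10 without Rpl22+/+ replicate 2). With 12 reads against 3416 in all, the ratio per unit depth was 256 with a wide exact binomial 95% interval of 146 to 496. Per length Sgsm1 was at 0.0210 TPM in Rpl22+/+, above 0.943% of the genes tested, and at 4.87 ± 0.365 TPM in Rpl22-/-, above 42.6%.

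Reads of Sgsm1 in Rpl22-/- were assigned to transcripts from both of its starts, which lie 30185 bases apart. Of 10 annotated transcripts, 5 begin at the distal start, Sgsm1-201 among them, and 3 at the internal start (Sgsm1-202, Sgsm1-203 and Sgsm1-208), within 14 bases of the second Sgsm1 window printed above. The internal start took 52.0%, 61.8% and 54.7% of the reads in the 3 Rpl22-/- libraries, with Wilson 95% intervals of 47.8% to 56.2%, 59.2% to 64.3% and 52.2% to 57.3%. The CpG-rich distal start took 47.8%, 38.2% and 45.3%. These intervals cover counting error only. In TPM the internal start was at 3.00 ± 0.129 and the distal start at 1.82 ± 0.208. Sgsm1-202 and Sgsm1-201 held most of the reads, 47.4 ± 5.60% and 39.7 ± 7.41%, with 5.80 ± 0.295% on Sgsm1-208, a processed transcript with no coding region, and 3.01 ± 0.663% on the short Sgsm1-203, which took 12.0 ± 2.65% of the TPM. Since both starts share the downstream exons, the split is Salmon's estimate and carries its uncertainty. In Rpl22+/+, 9 reads were assigned to the internal start and 3 to the distal one, too few for a share.

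**Figure D2:**
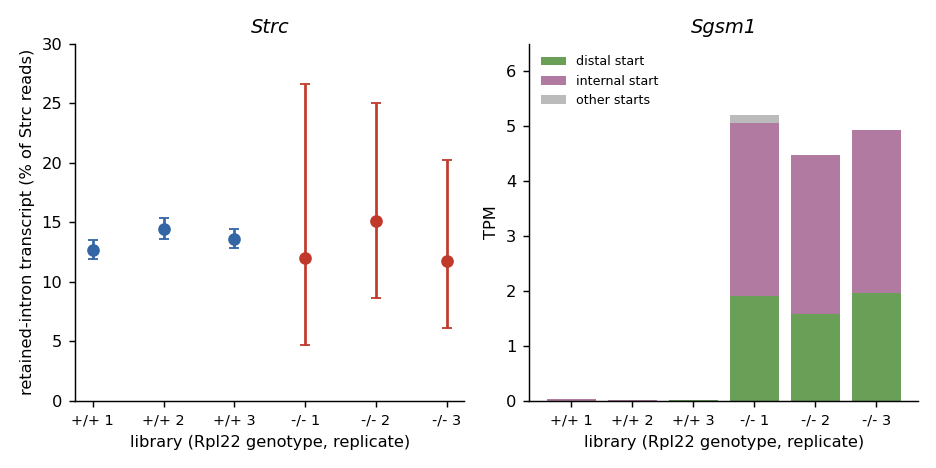
Left, reads on the retained-intron transcript Strc-204 as a percentage of all Strc reads in each library, with Wilson 95% intervals (blue Rpl22+/+, red Rpl22-/-); right, TPM of Sgsm1 in each library, stacked by the start of its transcripts. The Strc-204 share is 11.7% to 15.1% in all libraries, and in the 3 Rpl22-/- libraries Salmon assigned Sgsm1 reads to transcripts of both starts.

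The genes related to Sgsm1 were its paralogs, other TBC-domain genes and the Rap GTPases: all 11 were tested, 1 was called higher and 2 lower. The paralog Sgsm2 rose from 6.31, 8.41 and 5.48 CPM to 21.5, 19.2 and 20.5 CPM (edgeR, log2 change 1.60 ± 0.19 with adjusted p = 0.00175). Rap2a, a Ras-like GTPase, fell from 44.3, 60.4 and 47.4 CPM to 8.42, 11.3 and 11.7 CPM (edgeR, log2 change -2.27 ± 0.20 with adjusted p = 0.000496). Both calls were lost in 0 of 12 alternatives. Rap1b, the most abundant, was at 384 ± 55.6 and 218 ± 22.5 CPM with a log2 fold change of -0.82 ± 0.17, below the minimum for a call (edgeR adjusted p = 0.0127). Before Sgsm1, Grk3 lay 227 kb and Myo18b 347 kb away. Myo18b, an unconventional myosin gene, rose from 33.5 ± 5.96 to 78.4 ± 2.72 CPM (edgeR, log2 change 1.23 ± 0.16 with adjusted p = 0.00217; lost in 0 of 12), and Grk3 had a log2 fold change of 0.99 (edgeR adjusted p = 0.0052), just below the minimum for a call and called in 4 of the alternatives. On the other side, Wscd2 and Cmklr1 were not called, at -0.64 and -0.07.

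Epha2 encodes a receptor tyrosine kinase of epithelial cells that binds ephrin-A ligands on neighbouring cells. Epha2 (GRCm39 chr4:141028551-141056695, plus strand) was at 2.04, 3.15 and 2.20 CPM in Rpl22+/+ and at 16.2, 25.4 and 35.6 CPM in Rpl22-/-. No library of one genotype reached the other, but Epha2 was the most variable of the 7 within Rpl22-/-, where replicate 3 was 2.19 times replicate 1. The means were 2.46 ± 0.598 and 25.7 ± 9.69 CPM, with a log2 fold change of 3.39 ± 0.35 (SE; 3.56 without Rpl22+/+ replicate 2). There were 542 reads against 6920, a ratio of 11.5 (exact binomial 95% interval 10.5 to 12.6), and 0.847 ± 0.123 against 9.64 ± 3.75 TPM. That interval covers counting error only, and fits that left out a library gave log2 fold changes of 3.08 to 3.63. The full-length Epha2-201 took 99.1 ± 0.811% of the reads in Rpl22+/+ and 98.0 ± 1.02% in Rpl22-/-, so the difference was in the coding transcript.

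The Eph receptors are the largest family of receptor tyrosine kinases, and the ephrins are their membrane-bound ligands. Of 21 other Eph and ephrin genes, 12 were tested, 2 were called higher and 2 lower. Epha1 fell from 2.39, 2.89 and 1.95 CPM to 0.241, 0.280 and 0.227 CPM (edgeR, log2 change -3.26 ± 0.29 with adjusted p = 0.000506). Epha4 fell from 0.570, 0.540 and 0.655 CPM to 0.107, 0.0599 and 0.0755 CPM (edgeR, log2 change -2.90 ± 0.38 with adjusted p = 0.00227). Both receptors thus went the opposite way to Epha2, and both calls were lost with log2(TPM + 1), that of Epha4 also with log2(TPM + 0.1). The other receptors called, Epha7 and Epha8, were higher but very low, at 0.671 ± 0.122 and 0.157 ± 0.00616 CPM in Rpl22-/-, and were lost in 6 and 10 of 12 alternatives. With the replicate block Epha8 lost its call (edgeR adjusted p = 0.0520) and the ligand gene Efna1 was called. Among those not called, the ligand gene Efnb1 was the most abundant, at 8.16 ± 2.11 and 11.8 ± 0.356 CPM (edgeR adjusted p = 0.104). The 4 tested genes nearest to Epha2, Cplane2, Fbxo42, Zbtb17 and Spen, had log2 fold changes between -0.04 and 0.57 and none was called.

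Some epithelial markers moved with Epha2. The 6 genes of that list summed to 2.65 to 3.71 CPM in Rpl22+/+ and 24.8 to 30.1 CPM in Rpl22-/-, and of the 3 tested 2 were called higher and 1 lower. Epcam, a cell adhesion gene, was at 0.897, 1.05 and 0.628 CPM and at 21.5, 25.2 and 21.0 CPM, and Krt18, a keratin of simple epithelia, at 0.413, 0.540 and 0.361 CPM and at 2.59, 3.79 and 4.96 CPM. Cdh1, the gene for E-cadherin, went the other way, from 1.91, 2.09 and 1.62 CPM to 0.615, 0.988 and 0.963 CPM, and the keratins Krt5 and Krt14 were at 0 in every library. What part epithelial cells have in the level of Epha2 was not tested.

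Mansc1 encodes a membrane protein with a MANSC domain, a cysteine-rich motif found in the extracellular part of a few proteins, and its function is not well known. Mansc1 (GRCm39 chr6:134586170-134609451, minus strand) was at 1.79, 3.31 and 2.69 CPM in Rpl22+/+ and at 19.2, 19.4 and 16.0 CPM in Rpl22-/-. The genotypes were well apart, and the Rpl22+/+ libraries spread by more, relative to their mean, than the Rpl22-/- libraries. The means were 2.60 ± 0.761 and 18.2 ± 1.90 CPM, with a log2 fold change of 2.81 ± 0.26 (SE; 2.98 without Rpl22+/+ replicate 2), and 572 reads against 4357 gave a ratio of 6.85 (exact binomial 95% interval 6.28 to 7.49). All of its assigned reads were on the 1 matched transcript, Mansc1-201, at 1.38 ± 0.271 and 10.6 ± 1.28 TPM. The study puts MN1 in brackets after Mansc1 and describes it as a transcriptional co-factor in leukemia. Mn1 is a separate gene, with 5, 7 and 4 reads in Rpl22+/+ and 1, 8 and 11 in Rpl22-/-. These were too few for a test.

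The 7 symbols listed for the MANSC domain stand for 5 other genes, since some genes were listed under 2 names. All 5 were in the files, 3 were tested, and 1 was called, higher. Lrp11 rose from 0.441, 0.810 and 0.681 CPM to 1.74, 1.67 and 1.83 CPM (edgeR, log2 change 1.43 ± 0.30 with adjusted p = 0.014). Its edgeR adjusted p was 0.0572 when Rpl22+/+ replicate 3 was left out and 0.0562 for Rpl22-/- replicate 3, so the call did not hold without either of these libraries, nor with log2(TPM + 1). AU040320, the most abundant of the list, was at 76.0 ± 13.6 and 72.7 ± 3.07 CPM (edgeR adjusted p = 0.808). Of the genes beside Mansc1, Borcs5 lay 7.02 kb away with a log2 fold change of -0.43, Lrp6 had 0.42, Bcl2l14 had 0.94 and Dusp16 had -0.97. None of the 4 was called, the last 2 only for want of fold (edgeR adjusted p of 0.0263 and 0.00633).

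Cyb561 encodes a cytochrome of chromaffin and other neuroendocrine vesicles that carries electrons from ascorbate across the membrane, where they serve the enzymes that make catecholamines and amidated peptides. Cyb561 (GRCm39 chr11:105824528-105844162, minus strand) was at 0.712, 1.22 and 0.735 CPM in Rpl22+/+ and at 6.23, 7.07 and 6.39 CPM in Rpl22-/-. It was the least abundant of the 4 higher genes in Rpl22-/-, and its Rpl22-/- libraries differed by little. The means of 0.887 ± 0.284 and 6.56 ± 0.446 CPM gave a log2 fold change of 2.88 ± 0.27 (SE; 3.14 without Rpl22+/+ replicate 2), with 195 reads against 1618 and a ratio of 7.47 (exact binomial 95% interval 6.43 to 8.71). Of 7 annotated transcripts, the 2 full-length coding ones took 95.9 ± 1.71% of the reads in Rpl22+/+ and 95.4 ± 0.977% in Rpl22-/-. Cyb561-201 alone took 74.8%, 91.6% and 97.6% in Rpl22+/+ and 94.5%, 92.5% and 92.8% in Rpl22-/-. The low value in Rpl22+/+ replicate 1 came with 21.1% on the shorter full-length Cyb561-206, from 10.5 estimated reads. Of the TPM, Cyb561-206 took 14.9 ± 21.2% in Rpl22+/+ and 5.02 ± 4.49% in Rpl22-/-.

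Of 11 genes of the cytochrome b561 family and of ascorbate transport and use, 7 were tested and 1 was called, higher. Cyb561d2 rose from 8.09, 12.4 and 7.74 CPM to 17.7, 22.2 and 17.7 CPM (edgeR, log2 change 1.03 ± 0.23 with adjusted p = 0.0168). Its fold is at the threshold, and the edgeR adjusted p was 0.0650 when Rpl22+/+ replicate 1 was left out and 0.0716 for Rpl22+/+ replicate 3, while leaving out Rpl22-/- replicate 2 gave a log2 fold change of 0.91. Cyb561a3, the lysosomal family member, was at 106 ± 13.8 and 91.2 ± 7.35 CPM (edgeR adjusted p = 0.346). The enzyme gene Dbh, which draws on these electrons in chromaffin vesicles, had 2 reads over all libraries, and the neuroendocrine list as a whole summed to 0.0854 to 0.149 CPM in Rpl22+/+ and 0.187 to 0.217 CPM in Rpl22-/-, below the level of Cyb561 in either genotype, with Th at 0. Tanc2, a scaffold gene 4.40 kb from Cyb561, rose from 1.67, 1.23 and 1.18 CPM to 4.63, 3.82 and 4.38 CPM (edgeR, log2 change 1.65 ± 0.23 with adjusted p = 0.0029; lost in 1 of 12 alternatives, log2(TPM + 1)). Tlk2, Ace and Dcaf7 were not called, at -0.43, 0.35 and -0.56.

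**Figure D3:**
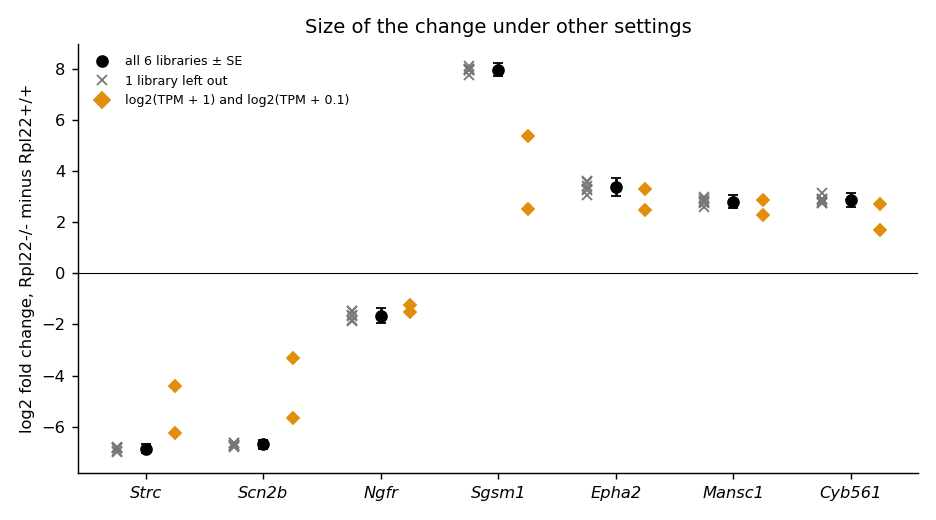
Log2 fold change of the 7 genes, Rpl22-/- minus Rpl22+/+: black points are the edgeR fit to all 6 libraries with its SE, grey crosses leave out 1 library each, and orange diamonds are limma fits to log2(TPM + 1) and log2(TPM + 0.1). The direction is kept throughout, and the pseudocount shortens the changes of Strc, Scn2b and Sgsm1, which are near 0 in 1 genotype, most.

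Set in order of TPM, which allows genes of different length to be compared, the 7 genes changed places between the genotypes. In Rpl22+/+ the order was Strc, Scn2b, Ngfr, Mansc1, Epha2, Cyb561 and Sgsm1, and only Scn2b and Ngfr had ranges that overlapped. In Rpl22-/- it was Mansc1, Epha2, Sgsm1, Cyb561, Ngfr, Strc and Scn2b, where Mansc1 and Epha2 overlapped. By size of change, Sgsm1 ranked 69th, Strc 128th and Scn2b 137th among the 16656 genes tested, Epha2 534th, Cyb561 738th, Mansc1 786th and Ngfr 1896th.

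Within Rpl22+/+ the genes split in another way. In CPM, Ngfr, Sgsm1, Epha2, Mansc1 and Cyb561 had their highest Rpl22+/+ value in replicate 2, the library that stood apart. Strc and Scn2b had their lowest there. For Sgsm1 this rests on 5 reads in replicate 2 against 4 and 3. In TPM, Sgsm1 was highest in replicate 1 and Mansc1 in replicate 3. The likeness of patterns over the 6 libraries was measured as the root mean square difference of log2 CPM, each gene centred on its mean. Strc and Scn2b differed by 0.20 and Mansc1 and Cyb561 by 0.18, while Epha2 differed from Cyb561 by 0.39. Of all other genes tested, the nearest to both Strc (0.27) and Scn2b (0.24) was Lin28a, which encodes an RNA-binding protein of embryonic cells that blocks let-7 maturation, at 75.9, 90.1 and 73.1 CPM in Rpl22+/+ and 0.561, 0.739 and 0.557 CPM in Rpl22-/-. The nearest to Sgsm1 was Tie1 (0.25), an endothelial receptor gene, to Ngfr it was St6gal1 (0.10), a sialyltransferase gene, to Epha2 Krt18 (0.19) and to Mansc1 Nynrin (0.12). Nearest to Cyb561 was Prtn3 (0.05), a protease gene of primary granules, at 520, 896 and 518 CPM and at 4464, 5305 and 4310 CPM. With 2 genotypes of 3 libraries these likenesses mainly reflect the size of the change.

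Over all 7 lists, 101 related genes were in the files and 59 were tested, of which 10 were called higher and 13 lower, beside 8.93% higher and 8.54% lower of all genes tested, in lists drawn up with earlier results known. Their median log2 fold change was -0.39 (the same with Otog at its bound) beside 0.07 for all genes tested. Another 36 were not called, and 42 were too low to be tested. Of the genes beside the 7, 28 in all at a median distance of 77.3 kb, 4 were called, 2 higher and 2 lower, with a median log2 fold change of 0.02. The 4 were Scn4b, Zfp652, Myo18b and Tanc2, each in the direction of the gene it lies beside, and as a share of 28 they are close to the 17.5% of all genes tested. At any size of change 10 of the 28 (35.7%) passed the adjusted p, beside 27.6% of all genes tested. Of the 6 that passed without a call, Pdia3, Dusp16 and Slc35b1 (edgeR adjusted p = 0.0207) went against the gene they lie beside. Jaml, Grk3 and Bcl2l14 went with theirs. Dusp16 and Grk3 were each called in 4 alternatives, Pdia3 and Bcl2l14 in 3 and Jaml in 1. On the other strand, 4 annotated genes (Ckmt1, Gm10684, Gm43952 and Gm9910) overlap Strc, Scn2b, Mansc1 or Cyb561, and they had at most 13 reads each over all libraries.

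**Figure D4:**
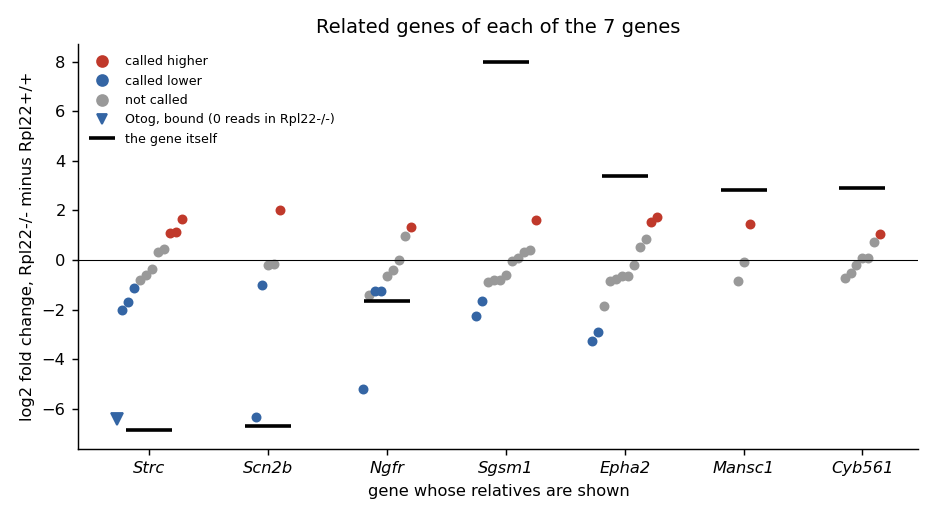
Log2 fold change, Rpl22-/- minus Rpl22+/+, of the 59 tested genes related to each of the 7 genes (red called higher, blue called lower, grey not called), with the gene itself as a black bar. Each triangle or point is 1 gene; Otog, with 0 reads in Rpl22-/-, is drawn at the bound set by 3 reads, and Scn4b and Ntf5 are the other related genes below -4.

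**Figure D5:**
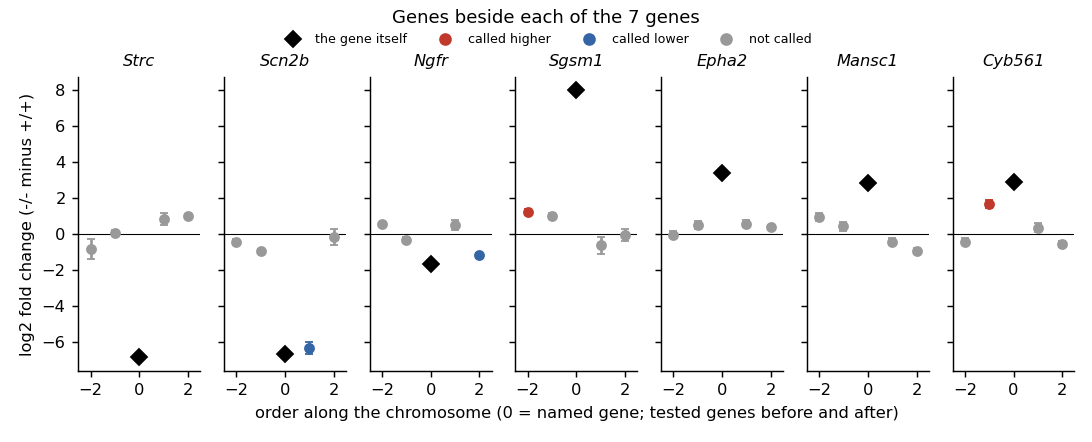
Log2 fold change with SE of the nearest tested genes on either side of each of the 7 genes (circles; red called higher, blue called lower, grey not called), with the gene itself at position 0 (diamond). Scn4b, at -6.33, is the neighbour nearest in size to its gene, and the neighbours of Strc, Epha2 and Mansc1 were not called.

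The myeloid genes of the sort were abundant in both genotypes, with the 10 of that list summing to 14856 to 20260 CPM in Rpl22+/+ and 23744 to 28870 CPM in Rpl22-/-, 2 called higher (Mpo and Elane) and 3 lower (Itgam, Ly6g and Lyz2). Itgam, the gene for CD11b, was at 1838, 2085 and 1861 CPM and at 1036, 994 and 815 CPM, and Ly6g, which encodes a part of the Gr1 antigen, was at 151, 178 and 149 CPM and at 15.7, 15.7 and 11.1 CPM, so both markers of the sort were present in every library. Of the lists for other cells, 5 of 6 erythroid genes were called higher (sums of 53.8 to 82.8 and 344 to 684 CPM), and 4 of 6 genes of T and NK cells were called lower and 1 higher (30.5 to 38.8 and 11.3 to 13.6 CPM). B-cell genes summed to 567 to 721 and 359 to 550 CPM with none of 5 called. The lists for platelets, dendritic cells, stroma and endothelium had 0, 0, 1 and 1 gene called higher and 0, 1, 1 and 0 called lower. Their part in the levels of the 7 genes was not tested.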

How the data were processed

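Per the study's methods and the submitters' processing notes, the authors made poly(A)-selected stranded paired-end libraries, trimmed them with Trimmomatic and ran Salmon; versions and the strand setting are not given in the sources used here. Deposited per library were the authors' estimated counts and TPM of each transcript, with its length, and a gene table on GRCm39, of which only positions and the base mean signal (the authors' size-scaled mean) were used. That table's fold changes, p-values and scores are the authors' own comparison and were not used.

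Estimated counts were summed to genes by GENCODE vM21 transcript identifiers without version (49.2% of 276623 transcripts, 98.0% to 98.1% of reads) and rounded. Transcripts outside that release were not assigned, and the size-factor means of the 7 genes were 0.960 to 1.04 times the deposited base mean signal. Distances between transcript starts and promoter windows are within GRCm38.

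Genotypes were compared over all 16656 genes kept by filterByExpr, by edgeR 4.0.16 (quasi-likelihood test, R 4.3.3, TMM, genotype only) and Benjamini-Hochberg adjustment; SE is that implied by the F statistic. Alternatives were DESeq2 1.42.0 (size factors or test), no filter, limma 3.58.1 on log2(TPM + 1) or log2(TPM + 0.1), the replicate number as a block, each library left out, protein-coding transcripts only, the longest full-length transcript only and shares of TPM. Read ratios, on reads pooled over a genotype, have exact conditional binomial intervals and shares of reads Wilson intervals (scipy 1.17.1). Both kinds of interval cover counting error only. Figures were drawn with matplotlib 3.10.9.

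The 7 genes, the lists of related genes and markers, the motifs and the alternatives were chosen with earlier results of these data known. Genes named are the 7; per related list up to 2 called with the smallest p and the most abundant not called; the 2 nearest tested genes on either side; the gene most alike; Rpl22 and Mn1. A few results are not reported here. Further genes of a list named with reads, levels or calls only, and Ptprc, were chosen after their values were seen.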

Additional observations from a re-analysis of the deposited data

How the results depend on the processing

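All 7 genes kept their direction under each of the 13 alternatives in which their change was fitted. With log2(TPM + 1) the log2 fold changes shrank to -4.41 for Strc, -3.32 for Scn2b, 2.52 for Sgsm1, 2.47 for Epha2, 2.28 for Mansc1 and 1.69 for Cyb561, and with log2(TPM + 0.1) to -6.26 for Strc, -5.65 for Scn2b and 5.36 for Sgsm1, as a pseudocount does for genes near 0 in 1 genotype; Sgsm1 was at 8.17 on protein-coding transcripts only. Leaving out 1 library gave -6.99 to -6.81 for Strc, -6.78 to -6.64 for Scn2b, 7.78 to 8.10 for Sgsm1, -1.86 to -1.46 for Ngfr, 3.08 to 3.63 for Epha2, 2.60 to 2.98 for Mansc1 and 2.74 to 3.14 for Cyb561. With log2(TPM + 1), 906 genes were called higher and 699 lower, and 5 related genes. Without a library, 1031 to 1708 genes were called higher, 1177 to 1723 lower and 2622 to 6851 passed the adjusted p at any size (4594 with all libraries; 2622 without Rpl22+/+ replicate 3, 3040 without Rpl22-/- replicate 1 and 2761 without Rpl22-/- replicate 3). Related genes called were 14 to 25 (23 with all; 15 without Rpl22+/+ replicate 1, Rpl22+/+ replicate 3 or Rpl22-/- replicate 1, and 14 without Rpl22-/- replicate 3), and neighbours called 4 to 7 (4 with all, 7 without Rpl22+/+ replicate 2). The cause was not tested.

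The replicate numbers were not taken to pair the libraries: over all genes tested, same-numbered libraries deviated from their genotype means with correlations of 0.48, 0.63 and 0.097, and for the 13202 genes averaging 50 counts or more with 0.57, 0.71 and 0.13, and Rpl22+/+ replicate 3 went best with Rpl22-/- replicate 1. With the replicate block, 1691 genes were called higher and 1488 lower, 5631 passed at any size, and 23 related and 4 neighbour genes were called. Of the 23 related genes 21 were shared, the calls of Myo15a and Epha8 were lost and the 2 of Ntrk3 and Efna1 were gained. Full-length coding transcripts took 93.9% of Sgsm1 reads in Rpl22-/-, and the longest of them alone 39.7%. Depth limits the Rpl22+/+ level of Sgsm1 (12 reads) and the split of Strc transcripts in Rpl22-/- (186 reads).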
